A study of Mus musculus with 6 samples.

Results

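Oxidative phosphorylation (OXPHOS) subunit genes were compared between penile squamous tumors and normal penis of the mouse. The members were every gene whose symbol begins with Nduf and a letter a, b, c, s or v and a digit, with Uqcr, with Cox and a digit from 4 to 8, or with Atp5. They numbered 80 of the 24063 gene symbols in the count tables, 0.332%. By complex, 35 encode subunits of complex I, 8 of complex III, 19 of complex IV and 15 of complex V, and 3 carry a matching name without being a subunit. Ndufa4 and Ndufa4l2 were placed with complex IV, where the Ndufa4 protein is found despite its name.

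The respiratory chain lies in the inner mitochondrial membrane. Complex I takes electrons from NADH, complex III passes them from ubiquinone to cytochrome c, complex IV gives them to oxygen, and complex V, the ATP synthase, uses the proton gradient that the others build. Most subunits are encoded in the nucleus, and several complex IV subunits exist in alternative forms that differ by tissue or by oxygen supply.

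The 3 SA tumors came from 3 PB-Cre+ Smad4L/L ApcL/L mice at 5 months of age. The driver line, PB-Cre4, causes recombination in androgen-responsive epithelial cells, both tumor suppressor genes are floxed, and the tumors arose without a carcinogen. The 3 WT penis samples were normal penile epithelium of wild type C57BL/6 mice of the same age. The study's methods do not give the strain background of the SA mice. All 6 were bulk total RNA, sequenced as stranded paired-end libraries, so fewer cells of a type and less RNA per cell cannot be told apart, and no sample shows an SA mouse before tumor growth or a wild type mouse with the Cre.

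Counts assigned to gene rows ranged from 23828283 to 32871142 in 5 libraries and reached 110509147 in SA tumor 3, 4.42 times the median of the other 5. Smad4 CPM (counts scaled to 1e+06 per library with TMM factors) were 36.6, 36.1 and 46.1 in SA tumors against 61.2, 69.7 and 72.5 in WT penis, and Apc CPM were 253, 194 and 197 against 62.5, 85.3 and 91.1. A count over the whole transcript is no check of a floxed exon. The WT penis samples, which the study's methods describe as epithelium, also carried 1807 to 2350 CPM of 9 smooth muscle markers, against 101 to 228 in SA tumors. In them 4 Schwann cell markers summed to 217 to 258 CPM, against 42.5 to 61.7 in SA tumors. Keratinocyte markers summed to 60312 to 68690 CPM in WT penis and 20650 to 26220 in SA tumors, and leukocyte markers to 110 to 186 against 1512 to 2616.

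Of the 80 members, 76 had enough counts to be tested. The untested ones were Cox6a2, Cox7b2, Cox8b and Cox8c. Testing used edgeR's quasi-likelihood F-test, adjusted by Benjamini-Hochberg over all 16336 genes tested, and a gene was called at an adjusted p under 0.01. Cox6b2 and Ndufa4 rose in SA tumors, and Ndufa4l2, Uqcrc1 and Atp5g2 fell. The other 71 were not called. Of all genes tested, 20.1% were called higher and 17.5% lower. With the additional requirement of a 4-fold change (log2 of at least 2), which 9.41% of all genes met upward and 3.59% downward, only Cox6b2 and Ndufa4l2 of the members passed.

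Most members differed little between the groups. The log2 fold change, SA tumor over WT penis, had a median of -0.06 over the 76 members, beside 0.03 over all genes tested, and quartiles of -0.21 and 0.07, beside -0.43 and 0.58. It was under 0.5 in size for 70 of the 76, as it was for 50.6% of all genes. The standard error had a median of 0.132, and the 95% interval lay within 1 log2 unit of 0 for 72 members and within 0.5 for 43. For the other members the interval from 3 samples a group allowed a larger change.

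By complex, the median log2 fold change was -0.10 for complex I, -0.06 for complex III, -0.04 for complex IV and -0.02 for complex V. In 4 members every SA tumor lay above every WT penis in CPM, and in 10 every SA tumor lay below, beside 32.7% and 30.7% of all genes. With libraries scaled by their totals alone, the log2 fold change of all genes shifted by 0.29, the member median turned to 0.22, the medians of the 4 complexes turned to between 0.19 and 0.27, and 11 members were called higher and 1 lower. The member median was then still under the median of all genes, 0.31. Over all 16336 genes tested, 5248 were called higher and 1806 lower with this scaling.

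**Figure D1:**
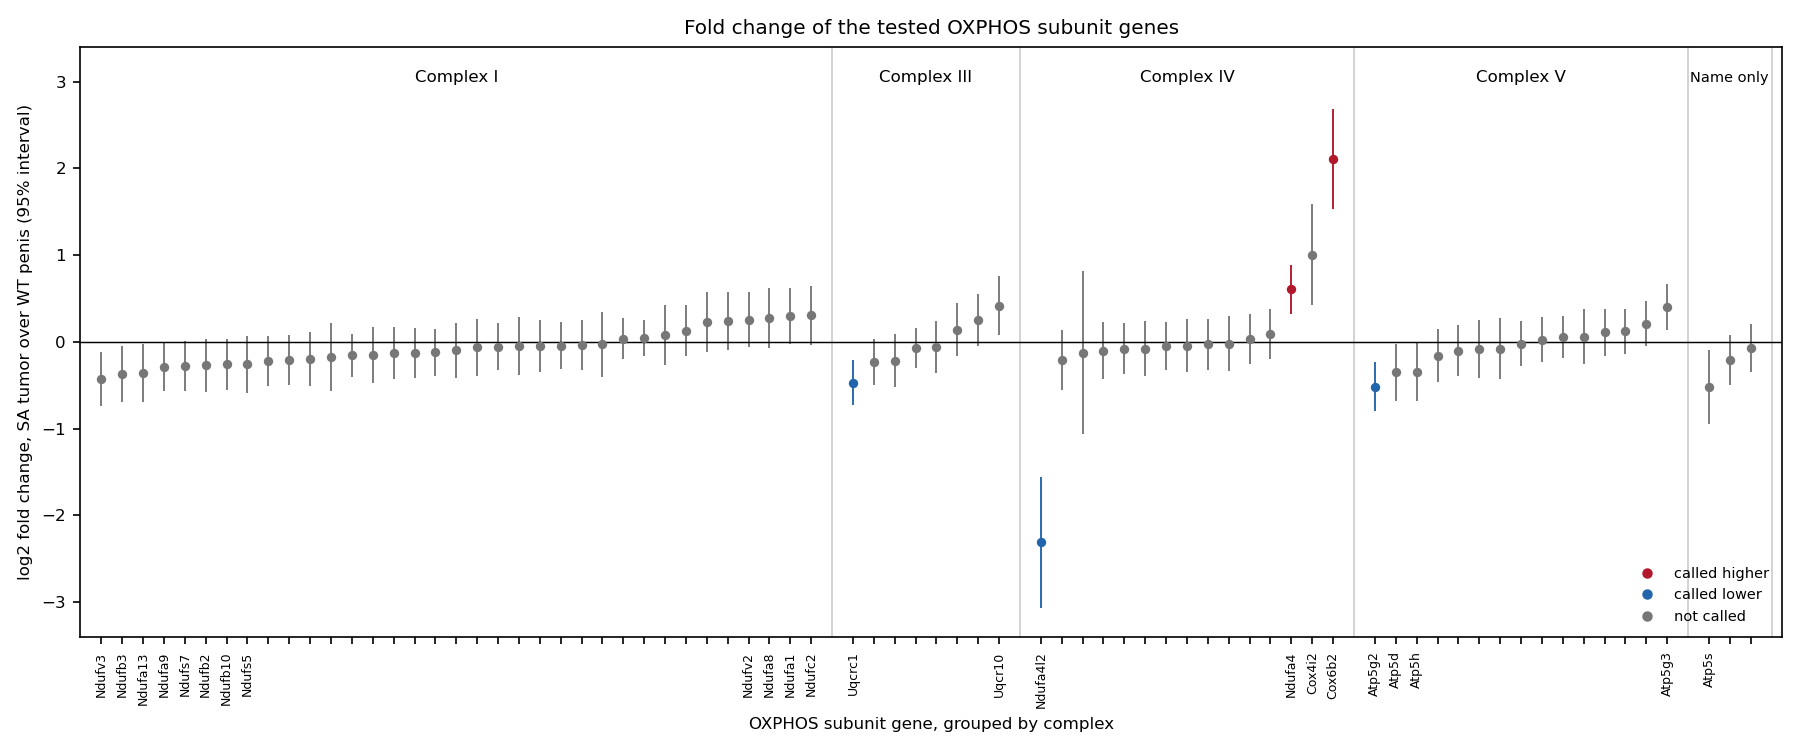
Log2 fold change (SA tumor over WT penis, y axis) of the 76 tested OXPHOS genes, ordered within each complex on the x axis, with 95% intervals as bars and names for genes at 0.25 or more in size. Red marks the 2 genes called higher, blue the 3 called lower and grey the 71 not called, and 70 points lie within 0.5 of 0.

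Of the 5 called members, 4 belong to pairs or groups of genes that encode alternative forms of the same subunit. Other members of such pairs or groups, among them Cox4i1, Cox6a1, Cox7a2, Cox8a and Atp5g1, were not called. The sequences of the Cox6b and Atp5g genes are shown to let the forms be compared. Cox6b1 (chr7:30616971-30626114, minus strand, mm10) and Cox6b2 (chr7:4751792-4753094, minus strand) encode the broadly expressed and the testis form of a subunit on the intermembrane side of complex IV. Their coding sequences of 261 and 267 bases are identical at 60.2% of aligned positions and share no run over 14 bases. Capitals mark the bases that differ or face a gap in the alignment.
Cox6b1: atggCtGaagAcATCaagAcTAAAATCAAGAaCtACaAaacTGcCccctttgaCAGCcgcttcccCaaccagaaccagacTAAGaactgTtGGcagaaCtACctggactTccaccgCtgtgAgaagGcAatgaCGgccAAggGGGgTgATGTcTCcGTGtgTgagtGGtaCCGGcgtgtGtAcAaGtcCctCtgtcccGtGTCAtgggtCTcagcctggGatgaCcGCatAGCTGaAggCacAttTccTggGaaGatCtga
Cox6b2: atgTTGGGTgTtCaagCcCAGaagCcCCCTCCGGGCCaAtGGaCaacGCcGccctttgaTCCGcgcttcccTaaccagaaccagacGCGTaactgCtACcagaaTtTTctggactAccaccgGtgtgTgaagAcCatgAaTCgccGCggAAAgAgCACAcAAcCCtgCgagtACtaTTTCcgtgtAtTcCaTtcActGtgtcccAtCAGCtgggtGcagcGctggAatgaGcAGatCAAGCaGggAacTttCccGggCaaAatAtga

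Atp5g1 (chr11:96072793-96075694), Atp5g2 (chr15:102662868-102671047) and Atp5g3 (chr2:73908447-73912464), all on the minus strand, encode the c subunit, whose ring turns in the membrane as protons pass the ATP synthase. Their last 78 codons before the stop encode the same residues. The 3 genes are thus 3 sources of one mature protein, and their messages differ at 64 of the 237 bases that these codons make up with the stop codon. The differing bases are in capitals.
Atp5g1: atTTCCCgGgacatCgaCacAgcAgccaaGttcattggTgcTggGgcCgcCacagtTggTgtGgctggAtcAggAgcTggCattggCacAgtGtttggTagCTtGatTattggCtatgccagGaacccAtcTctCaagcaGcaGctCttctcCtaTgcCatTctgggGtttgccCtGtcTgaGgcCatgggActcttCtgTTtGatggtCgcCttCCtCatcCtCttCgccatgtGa
Atp5g2: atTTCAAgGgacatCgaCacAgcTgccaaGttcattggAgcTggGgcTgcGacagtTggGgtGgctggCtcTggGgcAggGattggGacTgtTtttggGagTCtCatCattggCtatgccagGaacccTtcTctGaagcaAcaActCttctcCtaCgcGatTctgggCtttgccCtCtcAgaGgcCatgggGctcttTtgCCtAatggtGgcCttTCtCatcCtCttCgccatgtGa
Atp5g3: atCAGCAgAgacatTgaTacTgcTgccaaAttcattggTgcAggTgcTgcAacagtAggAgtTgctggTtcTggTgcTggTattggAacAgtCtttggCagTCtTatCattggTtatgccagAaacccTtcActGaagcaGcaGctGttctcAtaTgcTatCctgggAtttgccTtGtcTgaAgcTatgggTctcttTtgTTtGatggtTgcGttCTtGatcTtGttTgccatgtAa

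Complex I, the NADH dehydrogenase, had no called member among its 35 in edgeR, and 0 as well in DESeq2 and limma-voom. At an unadjusted edgeR p under 0.05, 4 were lower and 0 higher. Of all genes tested, 17.5% were called lower and 20.1% higher at the stricter adjusted p under 0.01. The log2 fold changes of the 35 ran from -0.43 to 0.31. The 7 nuclear-encoded core subunits, which carry the flavin, iron-sulfur clusters and quinone site, had a median of 0.04, and the 28 accessory subunits one of -0.12. Ndufs1, the largest iron-sulfur subunit, measured 87.1, 81.2 and 76.3 CPM in SA tumors and 78.7, 76.6 and 81.4 in WT penis. The groups overlapped in it, as they did in each of the 7 core subunits.

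TPM, which are scaled for transcript length and to 1e+06 per library, allow levels of different genes to be compared. The accessory subunits Ndufb8 and Ndufb9, of the membrane arm, had the highest TPM of complex I. Ndufb8 TPM were 200.2, 224 and 203 in SA tumors and 181, 164 and 153 in WT penis, and Ndufb9 TPM were 172, 184 and 174 against 164, 141 and 140.1. On that scale the SA tumors were above WT penis in both, whereas in CPM the groups overlapped in both. Ndufv3, an accessory subunit of the NADH-oxidizing part, had the lowest fold change of the complex. Its CPM were 40.9, 48.3 and 36.9 in SA tumors and 64.5, 54.5 and 50.3 in WT penis, which did not overlap (log2 fold change -0.43, SE 0.138, adjusted p = 0.029). It was not called. Ndufb3, Ndufa13, Ndufa9 and Ndufs5 were also lower in every SA tumor than in any WT penis, with log2 fold changes of -0.37, -0.35, -0.29 and -0.26 and adjusted p of 0.052 to 0.161. Of all genes tested, 30.7% lay lower in every SA tumor than in any WT penis.

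Complex III had 1 called member of 8. Uqcrc1 (chr9:108936648-108949641, plus strand), core protein 1, which faces the matrix, measured 192, 229 and 189 CPM in SA tumors and 307, 272 and 265 in WT penis. The groups did not overlap, with means of 203 ± 22.7 and 281 ± 22.3 (SD, n = 3 each), and the log2 fold change was -0.47 (SE 0.114, edgeR adjusted p = 0.008). The call was lost in 8 of 16 alternative analyses, among them each library left out except SA tumor 2, where the log2 fold change lay between -0.53 and -0.41. It was also lost under upper-quartile scaling (-0.41) and with library totals alone, where the value was the weakest (-0.18, adjusted p = 0.168). Uqcrc2, its partner core protein, measured 124, 124 and 108 CPM against 133, 123 and 116, and Uqcrfs1, the Rieske iron-sulfur protein, 104, 103 and 82.7 against 114, 95.9 and 90.9. Neither was separated between the groups. Uqcrb, a small matrix-side subunit, was lower in every SA tumor than in any WT penis (49.7, 49.1 and 46.1 CPM against 65.8, 53.5 and 50.9) and was not called (log2 fold change -0.23, edgeR adjusted p = 0.129).

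The small subunits Uqcrh and Uqcr10 had the highest TPM of complex III. Uqcrh, the hinge protein beside cytochrome c1, had 339, 324 and 302 TPM in SA tumors against 321, 275 and 266, which overlapped. Uqcr10 had 328, 314 and 252 TPM against 181, 177 and 157. Its CPM were 80.9, 81.0 and 60.9 against 62.4, 56.1 and 47.8, which overlapped between SA tumor 3 and WT penis 1 (log2 fold change 0.42, SE 0.147, adjusted p = 0.040), and it was not called.

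Complex IV, cytochrome c oxidase, held the largest changes, and these fell on genes with restricted expression. Ndufa4l2 (chr10:127509274-127517154, plus strand), a relative of Ndufa4 known as a target of the hypoxia-inducible factor, measured 53.8, 49.9 and 76.1 CPM in SA tumors and 440.1, 252 and 202 in WT penis. Every SA tumor was below every WT penis, with means of 59.9 ± 14.1 and 298 ± 126 (SD, n = 3 each). This was 4.96-fold lower in SA tumors, a log2 fold change of -2.31 (SE 0.319, edgeR adjusted p = 0.000841). It was called in all 16 alternatives, with values from -2.55 to -1.93.

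Ndufa4 (chr6:11900372-11907450, minus strand) moved the other way. It measured 142, 163 and 132 CPM in SA tumors and 107, 95.6 and 84.5 in WT penis, with every SA tumor above every WT penis. The means were 145 ± 15.8 and 95.6 ± 11.1, and the log2 fold change was 0.61 (SE 0.122, edgeR adjusted p = 0.003). The call was lost without SA tumor 2, WT penis 2 or WT penis 3, where the log2 fold change was 0.52, 0.59 and 0.50. Of the TPM of the pair, Ndufa4l2 made up 67.8%, 57.3% and 54.9% in WT penis and 16.2%, 13.5% and 22.8% in SA tumors. In WT penis Ndufa4l2 was thus the larger of the 2 transcripts per length, and in SA tumors Ndufa4 was.

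Other gene lists are given beside Ndufa4l2, to be read against the 20.1% of all genes called higher and 17.5% called lower. Of 9 smooth muscle markers, 9 fell, with a median log2 fold change of -4.37. Of 10 hypoxia response genes, Egln3 (-1.11), Ndrg1 (-1.05) and Pdk1 (-0.88) fell, Ero1l (0.95) rose and 6 were not called. Of 7 pericyte markers, a list added after these values were seen, Cspg4 (-1.77) and Notch3 (-0.90) fell, Kcnj8 (1.18) rose and 4 were not called. Their part in the difference of Ndufa4l2 was not tested. Its exons overlap those of Shmt2 on the opposite strand over 2.9% of their length, and the strand setting of the counting is not given in the sources used here.

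Cox6b2 rose from a low level. It measured 5.61, 4.20 and 5.94 CPM in SA tumors and 1.45, 1.13 and 1.09 in WT penis, from 127 to 732 counts and from 24 to 34 counts. All SA tumors were above all WT penis samples, with means of 5.25 ± 0.924 and 1.23 ± 0.193. The log2 fold change was 2.11 (SE 0.252, edgeR adjusted p = 0.000204), and it was called in all 16 alternatives, with values from 2.00 to 2.39. Its partner Cox6b1 measured 115, 120.1 and 102 CPM against 143, 109 and 103, which overlapped. Cox6b2 made up 4.06%, 2.94% and 4.81% of the TPM of the pair in SA tumors and 0.868%, 0.895% and 0.909% in WT penis, a minor share in both groups. Among 5 sperm and testis markers Prm2, Tnp1 and Odf1 had no count in WT penis and means of 0.00812, 0.0178 and 0.0273 CPM in SA tumors, and Prm1 had 0 to 8 counts in any library. Acr, the only one that could be tested, had 43, 43 and 138 counts in SA tumors and 22, 17 and 13 in WT penis, with means of 1.38 ± 0.241 and 0.718 ± 0.240 CPM (SD, n = 3 each). Its groups did not overlap in CPM, and it was not called (log2 fold change 0.93, SE 0.339, edgeR adjusted p = 0.046). The part of such cells in the difference of Cox6b2 was not tested.

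Cox4i2, the form of subunit 4 known from lung and from low oxygen, measured 17.0, 10.1 and 12.2 CPM in SA tumors and 8.54, 5.88 and 5.15 in WT penis. All SA tumors were above all WT penis samples (means 13.1 ± 3.52 and 6.52 ± 1.79), but the gene missed the threshold by a small margin (log2 fold change 1.01, SE 0.255, edgeR adjusted p = 0.0103). It was called without WT penis 1 (1.23), under upper-quartile scaling (1.06) and in 5 other alternatives. Its partner Cox4i1, one of the most abundant members, measured 173, 209 and 170 CPM against 235, 181 and 175, and the groups overlapped. Cox4i2 made up 9.15%, 4.72% and 6.87% of the TPM of the pair in SA tumors and 3.58%, 3.22% and 2.93% in WT penis.

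The other muscle and testis forms were scarce. Cox7a1, the heart and muscle form of subunit 7a, measured 0.483, 0.761 and 0.365 CPM in SA tumors and 0.723, 0.467 and 0.501 in WT penis, from 11 to 45 counts per library, beside 54.0 to 74.3 CPM of its partner Cox7a2 over all libraries. The muscle forms Cox6a2 and Cox8b had 1 to 9 and 0 to 2 counts per library, beside 99.0 to 133 CPM of Cox6a1 and 108 to 141 of Cox8a. The testis form Cox7b2 had 0 to 3 counts, and Cox8c had none in any library, which at 3 counts allows up to 0.0244 CPM in the deepest. Skeletal muscle markers summed to 40.6 to 44.9 CPM in SA tumors and 55.6 to 62.4 in WT penis, but went both ways. Of 12 tested, Myh1 (log2 fold change 3.25), Tnni1 (3.08) and Mb (2.97) rose and Tnnt1 (-4.21), Ckm (-3.71) and Tnni2 (-1.03) fell.

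The broadly expressed subunits of complex IV, 11 genes with Ndufa4 among them, lay close together. Apart from Ndufa4 their log2 fold changes ran from -0.21 (Cox5a) to 0.10 (Cox7b), and none was called. In TPM, Cox4i1 (415, 480.2 and 417 in SA tumors against 405, 339 and 339) and Ndufa4 (515, 566 and 488 against 277, 271 and 248) were the highest.

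**Figure D2:**
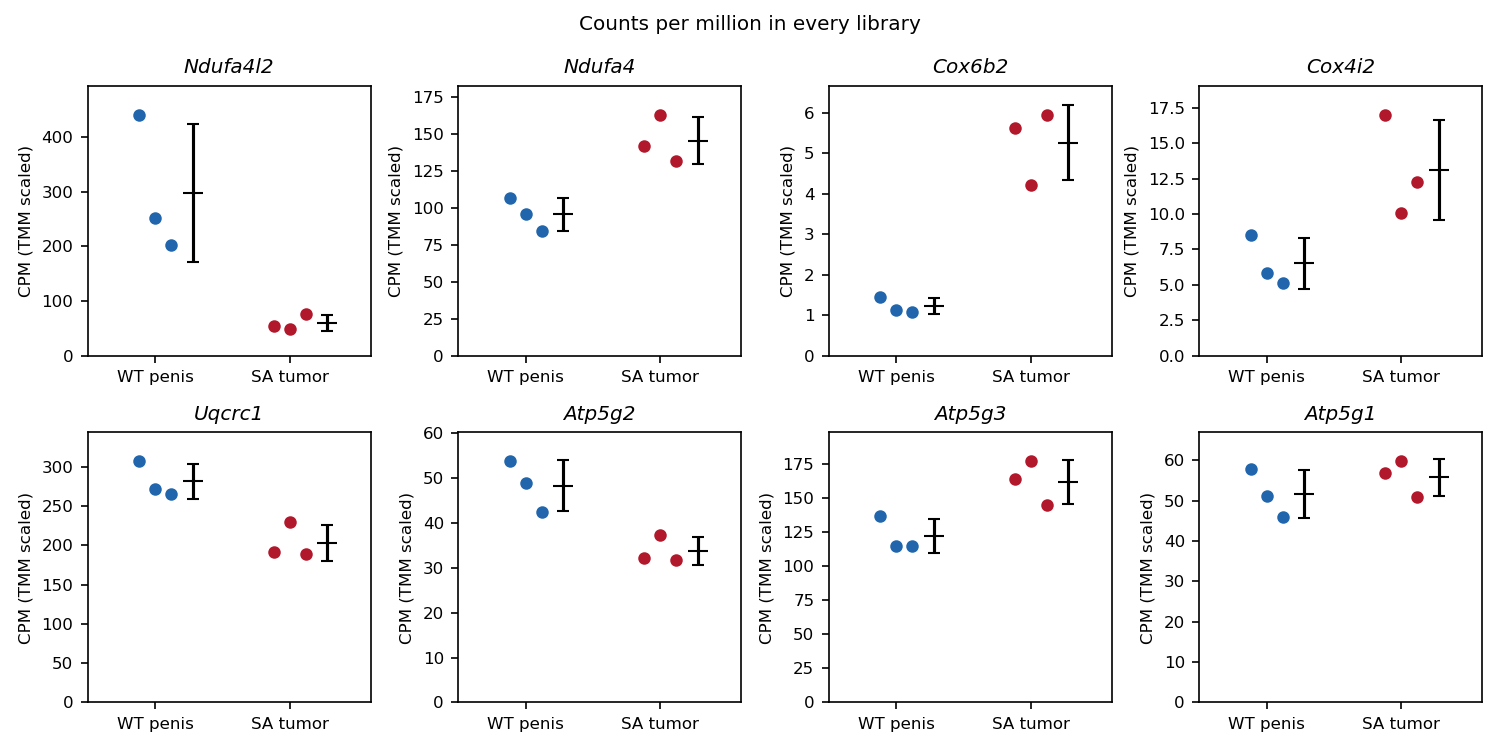
CPM (TMM scaled, y axis from 0) of 8 OXPHOS genes in the 3 WT penis and 3 SA tumor libraries (points), with the group mean and SD beside them. Ndufa4l2, Uqcrc1 and Atp5g2 lie lower in every SA tumor, Ndufa4, Cox6b2, Cox4i2 and Atp5g3 higher, and Atp5g1 overlaps.

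Complex V had 1 called member of 15. The catalytic subunits Atp5b and Atp5a1 were the most abundant members of the complex. Atp5b had 848, 840.0 and 758 TPM in SA tumors against 542, 551 and 538, and Atp5a1 490.4, 500 and 445 against 371, 357 and 363. In CPM Atp5b measured 891, 922 and 781 against 796, 742 and 701, which overlapped, and neither gene was called (log2 fold changes 0.21 and 0.02). The 5 subunits of the F1 part ran from -0.35 (Atp5d) to 0.21, and the 4 of the peripheral stalk, which holds F1 in place, from -0.35 (Atp5h) to 0.12 (Atp5j). The small membrane subunits Atp5k, Atp5j2 and Atp5l had values of -0.16, -0.10 and -0.08.

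The c subunit genes printed above differed among themselves. Atp5g2 measured 32.3, 37.4 and 31.8 CPM in SA tumors and 53.7, 48.9 and 42.4 in WT penis. Every SA tumor was below every WT penis (means 33.8 ± 3.13 and 48.4 ± 5.69), and the log2 fold change was -0.52 (SE 0.123, edgeR adjusted p = 0.008). The call was lost in 7 of 16 alternatives, among them without SA tumor 1, SA tumor 3, WT penis 1 or WT penis 2, where the log2 fold change lay between -0.53 and -0.44. It was also lost under upper-quartile scaling (-0.46) and with library totals alone, where the value was the weakest (-0.23, adjusted p = 0.118). A microRNA gene, Mir688, lies within 4.5% of its exon bases on the same strand.

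Atp5g3 measured 164, 177 and 145 CPM in SA tumors and 137, 115 and 115 in WT penis, with all SA tumors above all WT penis samples, and was not called (log2 fold change 0.41, SE 0.115, edgeR adjusted p = 0.017). Atp5g1 measured 56.7, 59.7 and 50.8 against 57.7, 51.1 and 46.0 and overlapped (0.11, SE 0.116). Of the summed TPM of the 3 genes, Atp5g2 made up 13.8%, 14.7% and 15.1% in SA tumors and 23.3%, 24.5% and 22.5% in WT penis. Atp5g3 made up 66.7%, 66.4% and 65.5% against 56.5%, 54.9% and 58.0%, and Atp5g1 18.9% to 19.5% against 19.6% to 20.6%. Shares within a library do not depend on the scaling between libraries, and these groups did not overlap. The 3 shares of a library add up to the whole, so they are not independent of each other. An exact permutation test of 3 against 3 cannot go under a two-sided p of 0.1, so none was made on the shares.

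**Figure D3:**
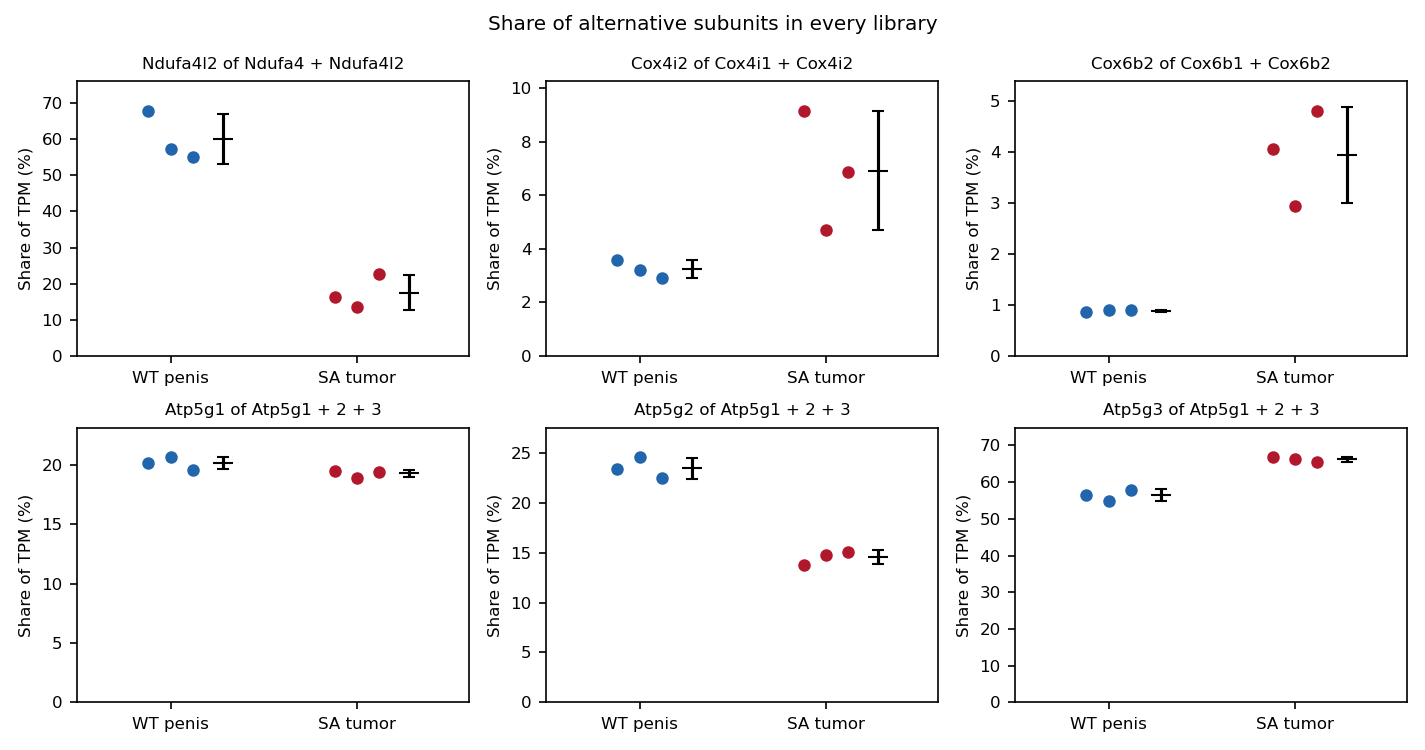
Share of TPM (%, y axis from 0) that an alternative gene took of its pair or, for the c subunit, of Atp5g1, Atp5g2 and Atp5g3 together, in each library (points), with group mean and SD. The groups do not overlap in any of the 6 panels, and Ndufa4l2 took 54.9% or more in WT penis and 22.8% or less in SA tumors. The pairs not shown, of Cox6a2, Cox7a1, Cox7b2 and Cox8b with their partners, overlapped.

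The promoter table held a window for 66 members, 250 bases before to 50 after each start. The shares beside them are over all 27025 genes with a window, not only genes expressed in these samples. Nuclear respiratory factor 1 (NRF1) is a known activator of OXPHOS genes, and its core letters GCGCATGC, on either strand, were in 9 of the 66 (13.6%), beside 3.05% of 27025 genes. These were Atp5g2, Atp5k, Atp5l, Cox6a1, Ndufa6, Ndufa8, Ndufa11, Uqcr11 and Uqcrc1. Of the 3 members called lower, Uqcrc1 and Atp5g2 had a window, both hold the letters, and both are shown (RefSeq, mm10), while Ndufa4l2 was not searched for want of a window in the table used here. The capitals mark the match, which reads the same on both strands, at bases 281 to 290 and 209 to 218 of the window. The other 7 were not called, with log2 fold changes from -0.19 (Ndufa6) to 0.27 (Ndufa8).
Uqcrc1, chr9:108936398-108936697, plus strand: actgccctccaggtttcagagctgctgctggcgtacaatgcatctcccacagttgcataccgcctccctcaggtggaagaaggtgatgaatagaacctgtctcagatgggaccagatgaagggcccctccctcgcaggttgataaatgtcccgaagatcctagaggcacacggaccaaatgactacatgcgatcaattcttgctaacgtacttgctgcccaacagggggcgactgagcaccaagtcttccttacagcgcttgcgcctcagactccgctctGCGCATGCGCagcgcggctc
Atp5g2, chr15:102670998-102671297, minus strand: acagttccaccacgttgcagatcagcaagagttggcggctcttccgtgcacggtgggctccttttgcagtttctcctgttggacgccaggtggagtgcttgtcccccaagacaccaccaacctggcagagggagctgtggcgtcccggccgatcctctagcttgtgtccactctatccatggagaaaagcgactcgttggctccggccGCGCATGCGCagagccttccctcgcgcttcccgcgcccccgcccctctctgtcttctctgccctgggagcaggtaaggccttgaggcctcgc

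The letters CCGGAAG of ETS factors such as GABPA were in 14 member windows (21.2%, beside 9.93% of all genes) and AAGATGGC of YY1 in 11 (16.7%, beside 3.19%). TCAAGGTCA, read by estrogen-related receptors, was in 1 (Atp5g3), and CTAAAAATA of the muscle factor MEF2 in 0. A match of letters is no evidence of binding. Of 17 regulators of mitochondrial genes that could be tested, Ppargc1a (log2 fold change 1.20) and Ppard (0.55) rose and Perm1 (-1.68) fell. Over all genes tested, 20.1% were called higher and 17.5% lower. The other 14 regulators were not called, among them Nrf1 (0.09), Gabpa (0.12), Yy1 (0.13) and the estrogen-related receptor Esrra (0.04).

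Summed by complex, the members overlapped between the groups in CPM. The sum over all members was 6506, 7011 and 5894 CPM in SA tumors and 7769, 6462 and 6071 in WT penis, a ratio of means of 0.956. Without the tissue-restricted forms, Ndufa4l2 among them, the ratio was 0.989, and it was 1.01 for the 11 broadly expressed subunits of complex IV. Summed TPM gave 13145, 13664 and 12197 against 11416, 10169 and 9789, with every SA tumor above every WT penis. The direction of the sum thus turned with the scale. TMM factors, which enter CPM and not TPM, were 1.10, 1.10 and 1.11 in SA tumors and 0.884, 0.912 and 0.921 in WT penis. Without these factors the members took 0.72%, 0.77% and 0.66% of the counts in SA tumors and 0.69%, 0.59% and 0.56% in WT penis, which overlapped. The keratinocyte markers, whose summed CPM are given above, take up a larger part of the WT libraries. Their part in this turn was not tested. In TPM the groups were separate for complexes I, III and V and overlapped for complex IV with its tissue-restricted forms. The 11 broadly expressed subunits of complex IV were separate too, with 3399, 3566 and 3140 TPM in SA tumors against 2795, 2476 and 2375.

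**Figure D4:**
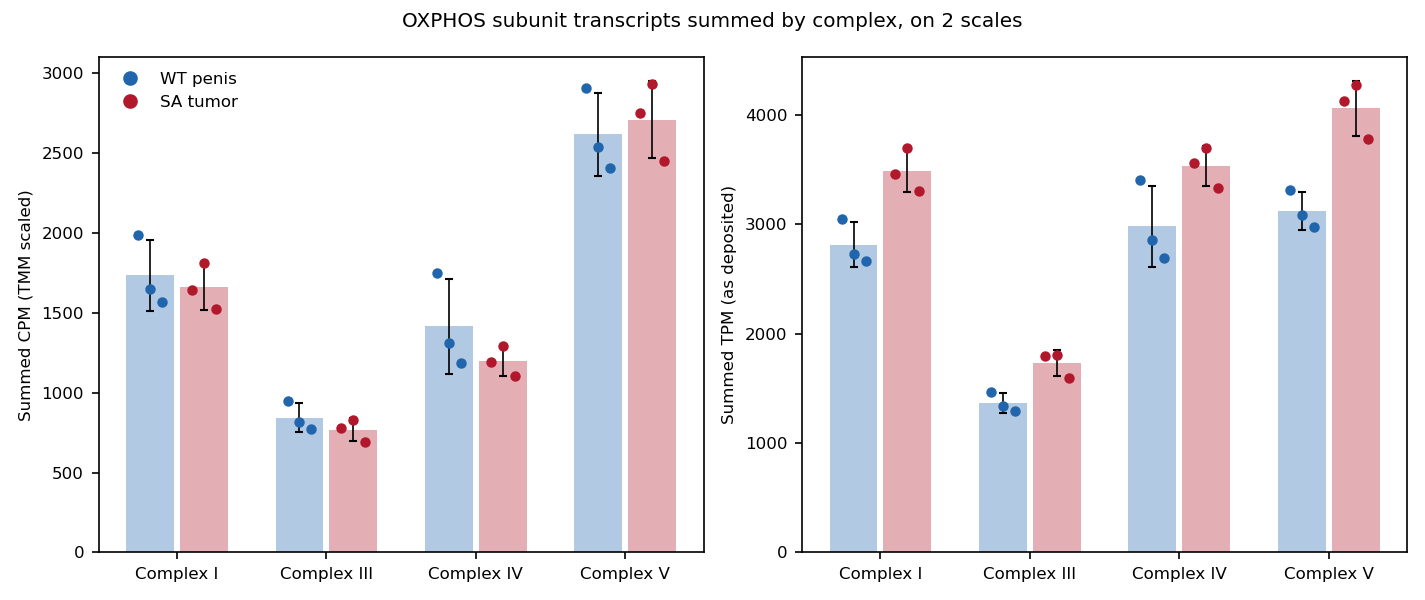
Summed levels of the members of each complex, in CPM with TMM scaling (left) and in TPM as deposited (right). Bars are group means from 0, error bars SD and points the 3 libraries of each group. In CPM the groups overlap for every complex, and in TPM the SA tumors lie above WT penis for complexes I, III and V, while complex IV, with its tissue-restricted forms, overlaps.

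Members moved together between libraries of one group. In WT penis 1, 75 of 76 tested members were above the mean of their group, with a median deviation of 0.23 on the log2 scale, and in WT penis 2 and WT penis 3 only 5 and 3 were (medians -0.06 and -0.15). Among SA tumors, 70 were above the group mean in SA tumor 2 and 4 in SA tumor 3 (medians 0.14 and -0.13). Deviations from a group mean cancel out within the group, so a high library makes the others low in part. The same deviations are not given here for all genes, so whether the pattern is particular to the members was not tested. Leaving out each library in turn moved the median log2 fold change of the members between -0.16 and 0.04, and it was positive without WT penis 1 (0.04) and without SA tumor 3.

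**Figure D5:**
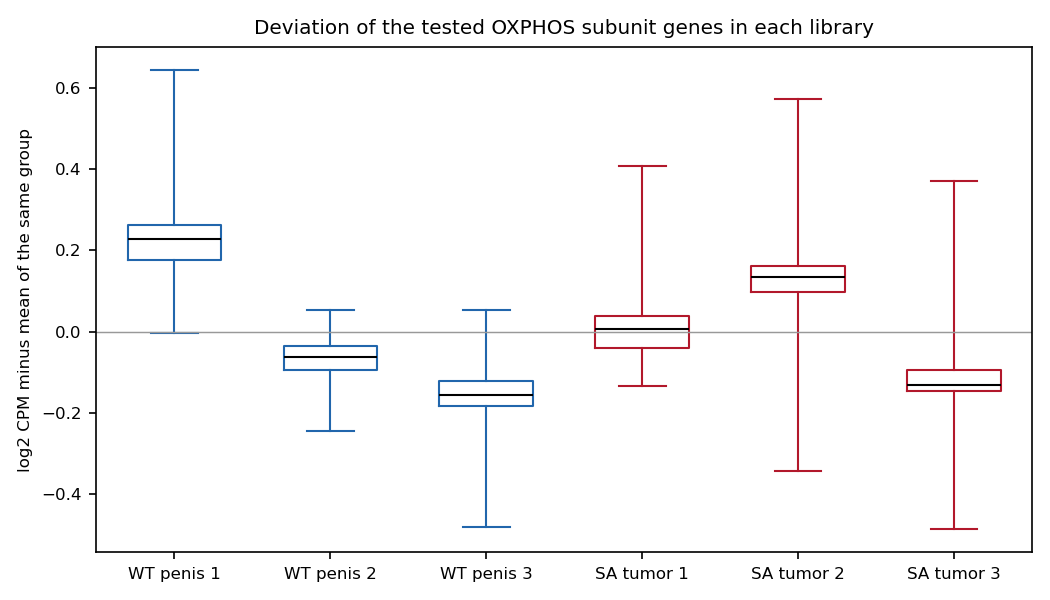
Log2 CPM of the 76 tested members minus the mean of the same group (y axis) in each library (x axis). Boxes span the quartiles with the median as a line, and whiskers reach the lowest and highest gene. WT penis 1 lies above 0 for 75 of 76 genes and WT penis 3 below 0 for most.

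Genes outside the name rule gave the context of the chain, and those called are named because they were called. Their counts are to be read against the 20.1% of all genes called higher and 17.5% called lower. Of the 4 subunits of complex II, Sdhc fell (log2 fold change -0.43). Of 8 electron carriers and further subunits, Cycs, cytochrome c, rose (0.49), and Etfa (-1.12) and Etfdh (-0.40), which pass electrons from fatty acid oxidation to ubiquinone, fell. Among assembly factors, Ndufaf4 rose (0.79) and Acad9 fell (-0.39) of 13 for complex I, Uqcc2 fell (-0.67) of 5 for complex III, Cox18 rose (0.63) and Surf1 (-0.76) and Cox14 (-0.66) fell of 21 for complex IV, and none of 3 for complex V was called, or had an unadjusted edgeR p under 0.05. Of 77 mitochondrial ribosomal protein genes, Mrpl34 rose (0.65) and Mrpl14 (-0.71), Mrpl24 (-0.59) and Mrpl44 (-0.49) fell, with a median log2 fold change of 0.01.

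The lists that follow are also read against the 20.1% of all genes called higher and 17.5% called lower. Of 14 fatty acid oxidation genes, Acads (1.52), Cpt2 (0.88) and Hadh (0.61) rose and Acaa2 (-1.24), Acadm (-0.99), Eci1 (-0.81) and Echs1 (-0.73) fell. Of 17 genes of the tricarboxylic acid cycle and of pyruvate dehydrogenase, which feeds it, Idh3a (0.63) of the cycle and Dlat (0.52) of pyruvate dehydrogenase rose and Dld (-0.34), which serves both, fell. Of the carriers that export ATP or let metabolites through, Slc25a5 (0.55) and Vdac3 (0.76) rose and Vdac1 (-0.52) fell of 6. Of 18 glycolysis genes, Hk2 (1.41), Ldhb (1.19) and Pgam1 (0.64) rose and Pfkp (-0.99) and Hk1 (-0.94) fell. Nnt, the proton-translocating transhydrogenase of which C57BL/6J mice carry a partial deletion, measured 23.1, 20.6 and 28.6 CPM in SA tumors and 9.31, 11.0 and 12.3 in WT penis (log2 fold change 1.15). Nnt differs between C57BL/6 substrains. The strain background of the SA mice is not given, so background and tumor cannot be told apart for this gene or for the others.

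The 3 members that share only a name were Cox7a2l, a factor of supercomplex assembly, and Atp5s and Atp5sl. Atp5s measured 4.05, 4.17 and 5.20 CPM in SA tumors and 6.46, 6.21 and 6.70 in WT penis, which did not overlap, and was not called (log2 fold change -0.52, SE 0.185, edgeR adjusted p = 0.042). Cox7a2l had a log2 fold change of -0.21 and Atp5sl one of -0.07. No mitochondrially encoded subunit was among the gene symbols, so only nuclear-encoded subunits were analysed here. Many OXPHOS genes have processed pseudogenes, and whether their reads were shared was not tested.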

How the data were processed

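RNA of 3 SA tumors and 3 WT penis samples was sequenced. TopHat alignment to mm10 and HTSeq counting were done by the authors (versions not given in the sources used here), and the deposited table of each sample holds raw counts per RefSeq transcript row. The deposited FPKM values, which the authors derived from the same counts, were not used. The deposited TPM values, scaled by the authors to 1e+06 per sample over all 33068 rows, served to compare levels between genes.

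The row with the highest mean count stood for each symbol. Of the members, 12 had more than 1 row, among them Cox6b2 with 6, and their TPM are those of the 1 row used. Reads that fit several rows may have been counted in each. The main test was that of edgeR 4.0.16 in R 4.3.3 (TMM scaling, filterByExpr with a minimum count of 10, robust quasi-likelihood F-test, Benjamini-Hochberg adjustment). A call required an adjusted p under 0.01. The study's tool, DESeq2 (1.42.0), and limma-voom (limma 3.58.1) were alternatives, with other scalings, filters, thresholds, row sums, thinning of SA tumor 3, a replicate block and each library left out. In CPM, 3 counts corresponded to 0.0244 to 0.137 by library, which covers counting error only. The script was tested on simulated data.

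The members, gene lists and tests were chosen with earlier results of these data known. Described with values in every sample are, by complex, up to 3 called members in each direction whose mean reached 100 counts, the 2 highest in TPM, and the tissue-restricted forms with their partners. Members also named for groups that did not overlap, and called genes of other lists, were chosen after their values were seen. RefSeq entries matched all 80 members by transcript. Coding sequences came from GENCODE vM21 transcripts of the same RefSeq accessions, and promoter windows from RefSeq, both on mm10. The windows of 14 members were not in the table used here. Global alignment scored a match 1, a mismatch -1, a gap opening -4 and its extension -1.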

Additional observations from a re-analysis of the deposited data

How the results depend on the processing

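The main analysis called 3 members lower and 2 higher. Cox6b2 and Ndufa4l2 were called in all 16 alternatives, Ndufa4 in 13, Atp5g2 in 9 and Uqcrc1 in 8, and no member that was called changed sign. Upper-quartile scaling gave 1 lower and 4 higher, and library totals alone gave 1 lower and 11 higher, with medians of 0.22 over all members, 0.19 for complex I, 0.23 for complex III, 0.25 for complex IV and 0.27 for complex V. All genes shifted by 0.06 and 0.29 on the log2 scale under these scalings, so the medians moved with them. Of the 16336 genes tested, 3577 were called higher and 2549 lower under upper-quartile scaling, and 5248 and 1806 with library totals. An adjusted p under 0.05 gave 5 lower and 5 higher, a threshold for which the share of all genes is not given here. The study's thresholds gave 1 lower and 1 higher, beside 3.59% and 9.41% of all genes. Leaving out each library in turn gave 1 to 3 lower and 1 to 4 higher, with medians from -0.16 to 0.04 over all members, -0.18 to 0.01 for complex I, -0.14 to 0.02 for complex III, -0.14 to 0.09 for complex IV and -0.09 to 0.07 for complex V. The cause was not tested. Over all genes tested, each library left out in turn gave 2055 to 2894 called lower and 2361 to 3260 higher.

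The methods of the study give no pairing of the samples by replicate number. Deviations of samples with the same number correlated at -0.13, -0.10 and 0.02 across genes, and those with different numbers at -0.15 to 0.21. With 3 samples a group, centred on their own mean, these correlations cannot decide whether the numbers pair the samples. With the number as a block, 3 members were called higher and 1 lower, Uqcrc1 and Atp5g2 losing their calls and Cox4i2 gaining a call. Of all 16336 genes, 2809 were then called higher and 2446 lower. With 3 samples a group, changes under 0.5 on the log2 scale were often within the 95% interval, and a missed threshold does not show equal levels. Processed pseudogenes and the strand setting of the counting were not examined.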
